A study of Mus musculus with 15 samples.

Results

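The genes described here are 10 regulators of the step at which a cell commits to DNA replication, each of which bears on how long fibroblasts keep dividing in culture. They are the INK4 inhibitors Cdkn2a, Cdkn2b, Cdkn2c and Cdkn2d, the Cip/Kip inhibitor Cdkn1b, the Rb family genes Rb1, Rbl1 and Rbl2, and the cyclins Ccnd1 and Ccnd2. They were found by gene symbol, without use of their values, and account for 22 of the 65522 transcription units in the table. The unit with the highest mean over the 15 samples stands for each gene unless another is named. RNA-seq of poly(A)-selected RNA was carried out on female C57BL/6 mouse embryonic fibroblasts. Primary populations, each from 1 embryo and collected before passage 5, were WT (CIZ1 +/+, from embryos E14.4, E13.1 and E13.8) or CIZ1 null (CIZ1 -/-, from E14.2, E13.15 and E13.17). Continued growth of each of these 6 populations gave 1 culture-adapted line per embryo. CIZ1 null animals carry a neomycin-resistance gene trap behind the first exon of Ciz1. Primary E13.17 also held a GFP-CIZ1 transgene that doxycycline can induce, without treatment. The study's list of cells gives the transgene for the adapted line of this embryo as well, although the label of that line does not, so 1 of the 3 samples in each CIZ1 null group carried it. A second untreated transgenic primary CIZ1 null sample (replicate 13) and 2 treated with doxycycline at 5 to 10 µg/ml (replicates 14 and 15) enter the account of induction, and replicate 13 in addition the alternative named beside Rbl2. Values are the authors' FPKM, which scale fragment counts to the length of a transcript and the size of a library.

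As background, the INK4 proteins bind the kinases CDK4 and CDK6 and keep D-type cyclins from activating them. The product of Cdkn1b, p27, inhibits cyclin E-CDK2 and also associates with cyclin D complexes. Active CDK4, CDK6 and CDK2 phosphorylate RB and its relatives p107 (Rbl1) and p130 (Rbl2), which otherwise restrain E2F factors and the genes of S phase. Cdkn2a encodes a pair of unrelated proteins in different reading frames: p16INK4a acts on CDK4 and CDK6, and p19ARF acts through MDM2 on p53. Loss of the ARF-p53 pathway is a well-known route by which mouse fibroblasts escape the arrest that culture imposes.

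The 5′ windows of these genes, taken from RefSeq on GRCm38.p6 where the table of promoters held them, are shown because Cdkn2a is read from a pair of starts 12.4 kb apart, and because Rbl1 is a textbook E2F target. Of the 10 genes, 7 had a window, with 9 windows in all; Rb1, Ccnd1 and Ccnd2 had none. Each line gives 250 bases that end at the base before the start, 5′ to 3′ on the strand of the gene. Capitals mark any of 4 letter strings of E2F sites, TTTCCCGC, TTTCGCGC, TTTGCCGC and TTTGGCGC, searched on both strands.
Cdkn2a, upstream start (ARF), chr4:89294620-89294869, minus strand: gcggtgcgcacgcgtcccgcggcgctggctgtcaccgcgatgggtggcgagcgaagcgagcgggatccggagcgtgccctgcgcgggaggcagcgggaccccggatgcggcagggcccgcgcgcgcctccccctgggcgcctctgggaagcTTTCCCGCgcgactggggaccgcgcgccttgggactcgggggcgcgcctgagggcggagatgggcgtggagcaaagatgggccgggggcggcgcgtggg
Cdkn2a, downstream start (INK4a), chr4:89282193-89282442, minus strand: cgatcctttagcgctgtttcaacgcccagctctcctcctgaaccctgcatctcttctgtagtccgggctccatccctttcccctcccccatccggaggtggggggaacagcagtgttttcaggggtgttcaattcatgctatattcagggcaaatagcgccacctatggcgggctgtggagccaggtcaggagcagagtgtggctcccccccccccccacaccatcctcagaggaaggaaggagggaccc
Cdkn2b, chr4:89311033-89311282, minus strand: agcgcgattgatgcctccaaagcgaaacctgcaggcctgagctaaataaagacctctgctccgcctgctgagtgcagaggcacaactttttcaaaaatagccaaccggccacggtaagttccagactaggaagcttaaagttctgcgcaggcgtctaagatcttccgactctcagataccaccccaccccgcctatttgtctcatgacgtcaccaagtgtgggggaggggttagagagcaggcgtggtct
Rbl1, chr2:157204535-157204784, minus strand: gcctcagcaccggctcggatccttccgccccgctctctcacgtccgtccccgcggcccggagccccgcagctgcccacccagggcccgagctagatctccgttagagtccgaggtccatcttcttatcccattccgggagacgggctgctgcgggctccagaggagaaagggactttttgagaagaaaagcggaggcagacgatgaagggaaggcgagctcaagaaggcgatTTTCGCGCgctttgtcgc
The ARF start of Cdkn2a held TTTCCCGC 92 to 99 bases before the start, and Rbl1 held TTTCGCGC 11 to 18 bases before it. The other 7 windows, with those of the INK4a start and Cdkn2b among them, held none of the 4 strings. Of all 32851 windows of this length, 611 (1.86%) held one. These matches are letters in a window, and no binding was measured.

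**Figure D1:**
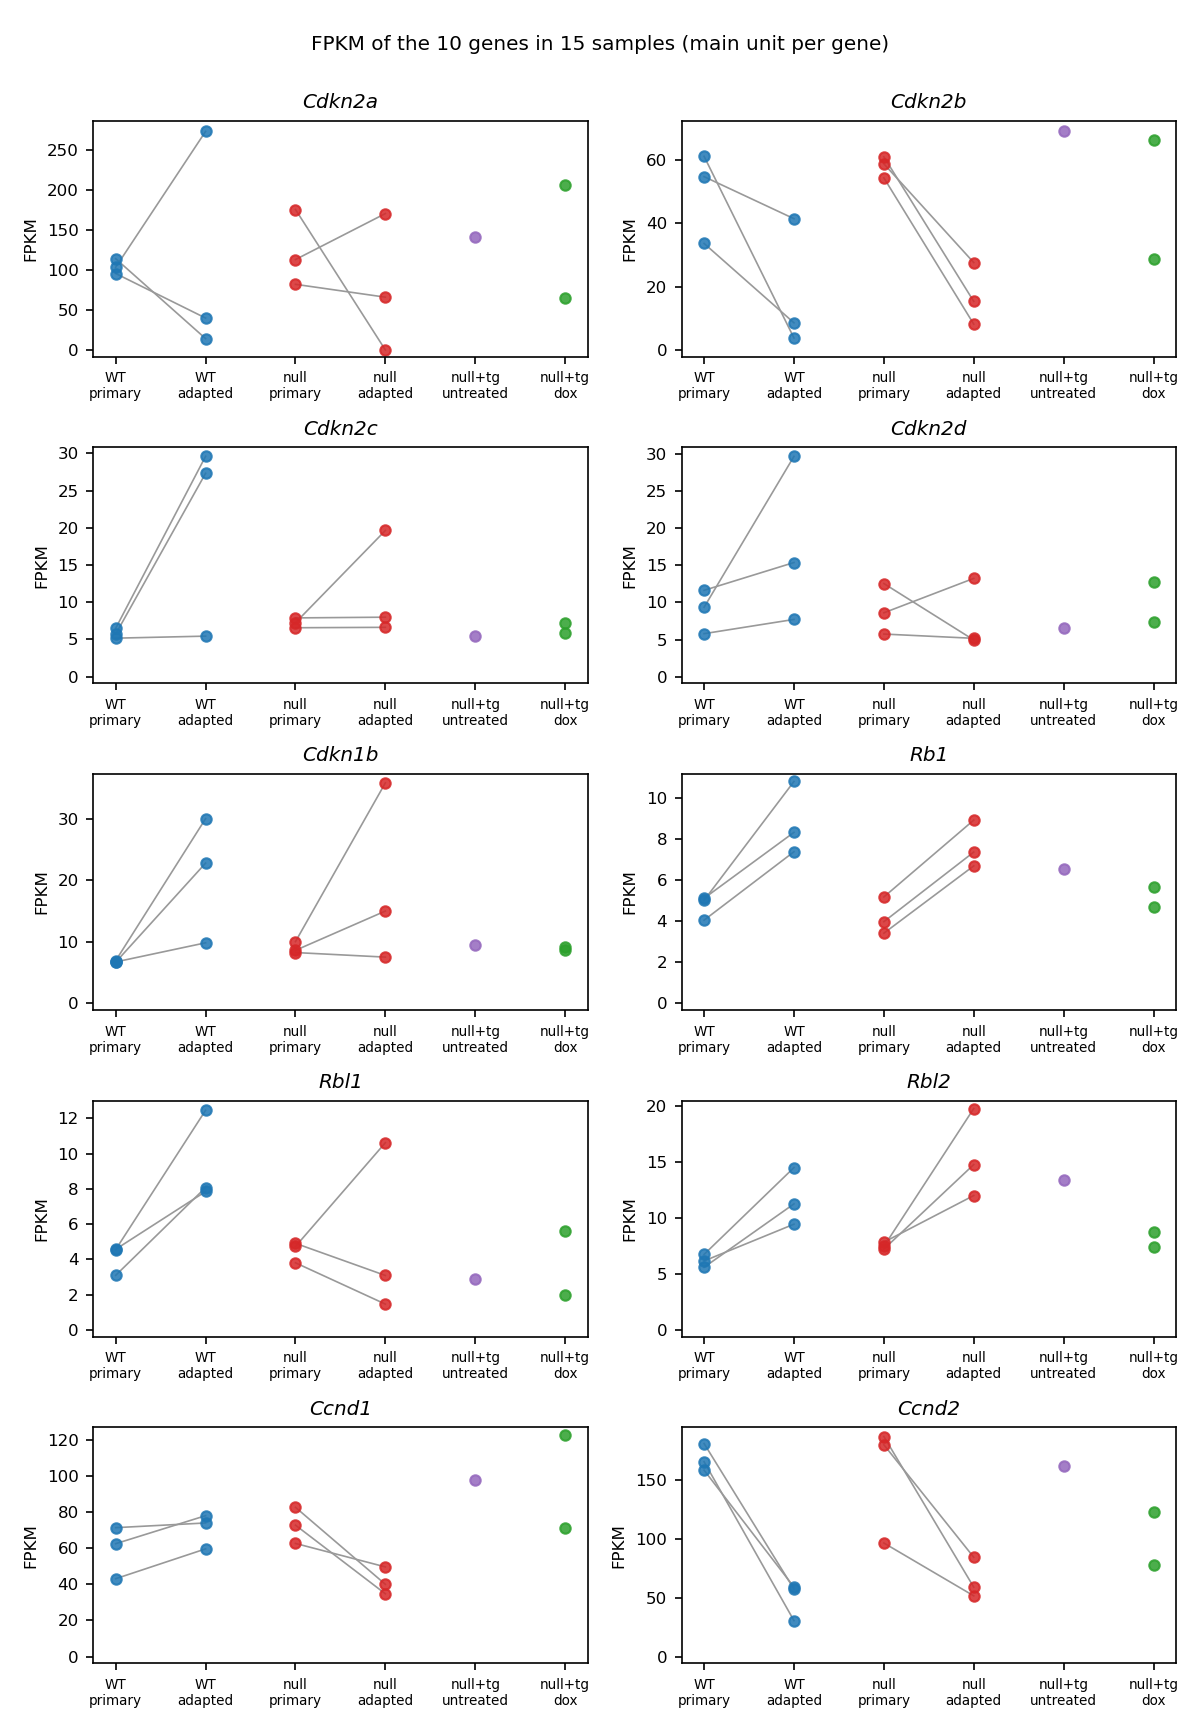
FPKM of the 10 genes (vertical axes, linear, a panel per gene) in 15 samples. Points are samples, grey lines join the primary population and the adapted line of 1 embryo, and null primary includes the untreated transgenic E13.17. Cdkn2b and Ccnd2 were lower and Cdkn2c, Rb1 and Rbl2 higher in the adapted line of all 6 embryos. Beside them, 18.5% of 20046 units were lower and 14.4% higher in every embryo. Adapted lines scattered from 0 to 273 FPKM for Cdkn2a.

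Cdkn2a (GRCm38, chr4:89274471-89295056) was expressed at a high level in primary cells, and its level in adapted lines ranged from a listed 0 to more than any primary sample reached. In primary WT cells it was at 114 FPKM in E13.1, 104 in E13.8 and 95.7 in E14.4, and in primary CIZ1 null cells at 82.2 in E13.15, 176 in E13.17 and 113 in E14.2. In adapted WT lines it was at 14.2 in E13.1, 273 in E13.8 and 39.9 in E14.4, and in adapted CIZ1 null lines at 66.1 in E13.15, 0 in E13.17 and 171 in E14.2. Adaptation thus went with a level 8.04 times lower in E13.1, 2.40 times lower in E14.4 and 1.24 times lower in E13.15, but 2.64 times higher in E13.8 and 1.51 times higher in E14.2, and the groups overlapped in both genotypes. No common direction was detected for the unit with the highest mean. Its WT difference was -0.92 on the log2(FPKM + 1) scale (95% interval -3.24 to 1.40; adjusted p = 0.557, limma with Benjamini-Hochberg adjustment). Within WT, the highest adapted line held 19.2 times the lowest, compared with 1.19 times among primary populations. For CIZ1 null cells no fitted fold is given, because a sample is listed at 0. In bulk RNA, fewer cells that express a gene cannot be told apart from less RNA of it per cell.

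All 3 units of Cdkn2a were listed at 0 in adapted E13.17, and each was above 0 in the other 14 samples. The second unit was at 25.8 FPKM in primary E13.17 and the third at 7.43. The 3 units share the same coordinates and do not separate the transcripts of p16INK4a and p19ARF, and reads may have been divided among them. They went different ways in E14.2. There the second unit was at 19.7 FPKM in primary and 13.5 in adapted cells, and the third at 6.24 and 2.44. In E13.8 both were higher in the adapted line (14.8 to 20.4 and 5.43 to 12.7), and in the remaining embryos both were lower. Neither was called over both genotypes (adjusted p = 0.0514 and 0.101, limma), in fits that include the listed 0 of adapted E13.17. The genes next to it were read in the same library: Mtap, which codes for an enzyme of methionine salvage and ends 93.2 kb away, was at 29.9 FPKM in adapted E13.17 and 37.9 in primary E13.17, and Cdkn2b, which starts 8.71 kb away on the other side, was at 27.6 and 58.8. On the far side of Mtap, both units of Gm12602 and both of Gm12603 were also listed at 0 in adapted E13.17. They were at 0 in adapted E13.1 as well, a line with 14.2 FPKM of Cdkn2a, and those of Gm12603 in adapted E14.2. Among all units that were at 10 FPKM or more in each of the other 14 samples, adapted E13.17 had 2 listed at 0, Cdkn2a and Gm5160, adapted E14.2 had 1, and the other 13 samples had none. A value of 0 in this table can be a failed estimate, and the number of reads behind it is unknown.

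In the opposite direction, a pair of unnamed units with the coordinates chr4:89471234-89471645, 187 kb from the middle of Cdkn2a, was at 19.4 and 19.2 FPKM in adapted E13.17 and listed at 0 in the other 14 samples. Adapted E13.17 had 5 units in all at 10 FPKM or more that were at 0 in every other sample, fewer than primary E13.17 with 47. Within 500 kb of Cdkn2a, 30 of 56 units reached 0.1 FPKM in some sample, and adapted E13.17 had 18 of them at 0, adapted E13.1 19, and the other samples 8 to 13.

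**Figure D2:**
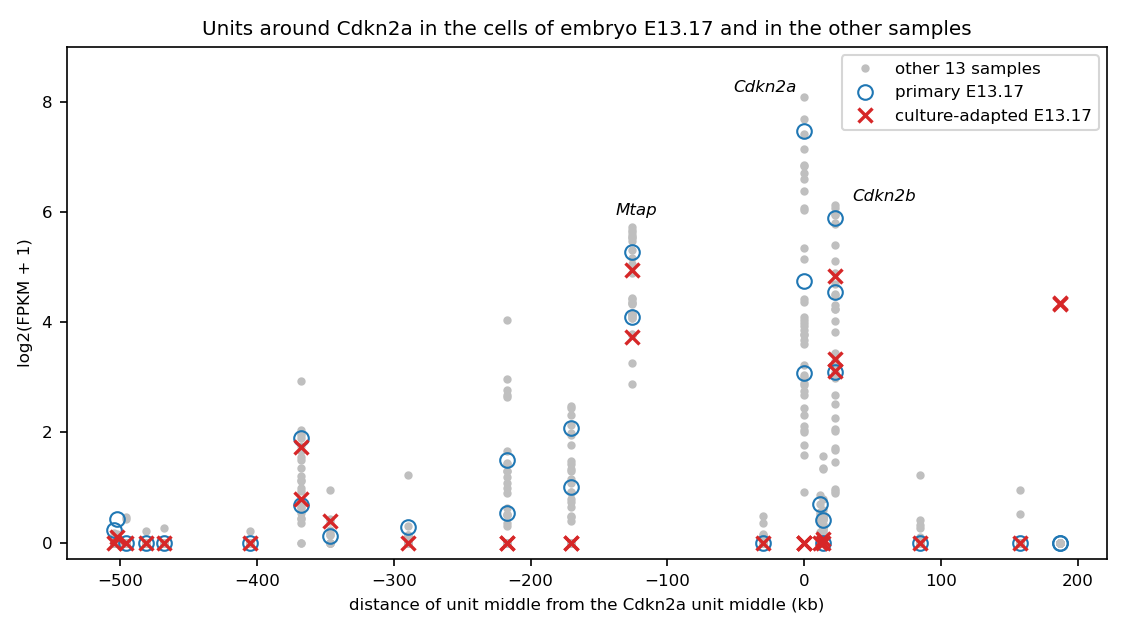
Log2(FPKM + 1) of the 30 units around Cdkn2a (vertical axis) against the distance of their middle from that of Cdkn2a in kb (horizontal axis), for primary E13.17 (circles), adapted E13.17 (crosses) and the other 13 samples (grey points). At Cdkn2a all crosses lie at 0, whereas Mtap and Cdkn2b stay within the range of the other samples; the lone crosses at 187 kb are the units read only in this line.

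Cdkn2b, the neighbour of Cdkn2a (chr4:89303768-89311075) and the gene for p15INK4b, was lower in the adapted line of every embryo, beside 18.5% of 20046 units. In WT cells it went from 61.2 to 3.77 FPKM in E13.1, from 54.7 to 41.5 in E13.8 and from 33.6 to 8.57 in E14.4. In CIZ1 null cells it went from 54.4 to 8.15 in E13.15, from 58.8 to 27.6 in E13.17 and from 61.0 to 15.3 in E14.2. The ratio of primary to adapted thus ran from 1.32 in E13.8 to 16.2 in E13.1. CIZ1 null groups did not overlap (19.6% of units were lower without overlap there), whereas in WT the adapted E13.8 line lay above primary E14.4. Neither genotype alone passed the test over all units (WT -1.98, standard error 0.77, adjusted p = 0.140; CIZ1 null -1.86, standard error 0.40, adjusted p = 0.0524; limma with Benjamini-Hochberg adjustment). Over both genotypes together, a fit of 6 primary against 6 adapted samples that was added after the data had been seen, Cdkn2b fell by 1.92 on the log2 scale (95% interval -2.91 to -0.93; adjusted p = 0.00772, limma), and the call held when each of the 12 samples was left out in turn. Within a genotype, a call appeared when 1 line was left out. Without adapted E13.8 the WT difference was -2.87 (adjusted p = 0.0289), and the CIZ1 null difference was -1.45 without adapted E13.15 (adjusted p = 0.030) and -2.27 without adapted E13.17 (adjusted p = 0.0301, limma). By the units with the highest mean, both Cdkn2a and Cdkn2b were lower in the adapted line of 4 of 6 embryos, E13.1, E14.4, E13.15 and E13.17. In E13.8 and E14.2, by the same units, Cdkn2a was higher and Cdkn2b lower. Whether they moved together was not tested. Adapted E13.17, where Cdkn2a was listed at 0, had the most Cdkn2b among adapted CIZ1 null lines. Cdkn2b has 3 units at the same coordinates. The second did not overlap in WT (21.4% of units were lower without overlap). It was at 7.36 FPKM in adapted E13.8 and 9.94 in primary E14.4, with a WT difference of -2.17 (adjusted p = 0.0616, limma). The third overlapped in both genotypes. Over both genotypes these 2 units gave -2.29 and -1.04 (adjusted p = 0.00169 and 0.0439, limma).

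The other INK4 genes code for p18 (Cdkn2c) and p19INK4d (Cdkn2d) and lie at chr4:109660746-109667244 and chr9:21288306-21291760. Cdkn2c was even in primary cells, at 5.72 FPKM in E13.1, 6.5 in E13.8 and 5.17 in E14.4 among WT and at 7.89 in E13.15, 7.24 in E13.17 and 6.57 in E14.2 among CIZ1 null populations. Adapted lines fell into high and low ones: E13.1 was at 27.3, E13.8 at 29.6 and E13.17 at 19.6 FPKM, whereas E14.4 was at 5.44, E13.15 at 7.99 and E14.2 at 6.62. In the last 3, the adapted level was 1.01 to 1.05 times that of the same embryo's primary cells. Neither genotype passed the test (WT 1.39, adjusted p = 0.171; CIZ1 null 0.45, adjusted p = 0.461; limma with Benjamini-Hochberg adjustment), and without adapted E14.4 the difference was 2.12 in WT (adjusted p = 0.00762) and 1.19 over both genotypes (adjusted p = 0.0218, limma).

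Cdkn2d did not keep a direction across genotypes. It went from 9.35 to 29.7 FPKM in E13.1, from 11.6 to 15.4 in E13.8 and from 5.79 to 7.71 in E14.4, and from 8.60 to 13.2 in E13.15, from 12.5 to 4.94 in E13.17 and from 5.74 to 5.16 in E14.2. It was therefore higher in the adapted line of 3 of 3 WT embryos and 1 of 3 CIZ1 null embryos, with overlap in both genotypes and no call (WT 0.77, adjusted p = 0.324; CIZ1 null -0.25, adjusted p = 0.720; limma).

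Cdkn1b (chr6:134919734-134925624), the gene for p27, was level in primary WT cells, at 6.93 FPKM in E13.1, 6.68 in E13.8 and 6.72 in E14.4, and stood at 8.60 in E13.15, 10.0 in E13.17 and 8.25 in E14.2 among primary CIZ1 null populations. The adapted lines reached 30.0 in E13.1, 22.8 in E13.8 and 9.83 in E14.4 among WT, and 15 in E13.15, 35.8 in E13.17 and 7.5 in E14.2 among CIZ1 null. Values were higher after adaptation in 5 of 6 embryos, by up to 4.33 times in E13.1, and the WT groups did not overlap (17.3% of units were higher without overlap there). Over both genotypes Cdkn1b rose by 1.07 (standard error 0.34; adjusted p = 0.0299, limma), a call that was lost when 1 of 8 of the 12 samples was left out (adjusted p 0.0514 to 0.0613), namely the 3 primary WT, primary E13.15 and E14.2, and adapted E13.1, E13.8 and E13.17. Within WT the difference was 1.36 (adjusted p = 0.0708), or 1.8 without adapted E14.4 (adjusted p = 0.00989), and within CIZ1 null cells it was 0.78 (adjusted p = 0.341, limma). The lines with the highest Cdkn2c, E13.1, E13.8 and E13.17, were also the 3 with the highest Cdkn1b. A second unit of Cdkn1b at the same coordinates had a lower mean, 4.86 FPKM over the 15 samples. It was higher in the adapted line of every embryo (14.4% of units were so), in E14.2 from 2.53 to 3.70 FPKM. Over both genotypes its groups did not overlap (7.2% of units were higher without overlap) and it rose by 1.14 (adjusted p = 0.00839, limma).

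Rb1 and Rbl2 were higher in the adapted line of every embryo, beside 14.4% of 20046 units, and Rbl1 was so in 4 of 6. Rb1 (chr14:73123037-73325822), the gene for RB itself, was at 5.01 FPKM in E13.1, 4.05 in E13.8 and 5.11 in E14.4 in primary WT cells and at 10.8, 7.38 and 8.33 in the adapted lines. CIZ1 null cells had 3.97 in E13.15, 3.41 in E13.17 and 5.18 in E14.2 before and 7.36, 6.69 and 8.92 after adaptation. The ratio lay between 1.63 and 2.15 in all 6 embryos, and no adapted line overlapped a primary population. Over both genotypes Rb1 rose by 0.76 (95% interval 0.47 to 1.05; adjusted p = 0.00163, limma), and the call held without each of the 12 samples. The genotypes alone gave 0.77 in WT (adjusted p = 0.0585) and 0.75 in CIZ1 null cells (adjusted p = 0.0794, limma). Rb1 has 5 units at the same coordinates, so that its level may be divided among them. The other 4 were lower, with means of 0.0904 to 2.21 FPKM over the 15 samples. The second unit overlapped between primary and adapted samples and rose by 0.75 over both genotypes (adjusted p = 0.0130, limma). The third, with a mean of 1.72 FPKM, was called higher in WT (1.34, adjusted p = 0.0306, limma).

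Rbl2 (chr8:91070056-91134465), the gene for p130, which is most abundant in resting cells, was 1.53 to 2.65 times higher in the adapted line of each embryo. It went from 6.73 to 14.5 FPKM in E13.1, from 6.15 to 9.43 in E13.8 and from 5.59 to 11.2 in E14.4. Among CIZ1 null embryos it went from 7.82 to 12 in E13.15, from 7.45 to 19.7 in E13.17 and from 7.20 to 14.7 in E14.2. All adapted lines stood above all primary populations of the 6 embryos, and Rbl2 rose by 0.87 over both genotypes (95% interval 0.57 to 1.18; adjusted p = 0.00103, limma, and called without each of the 12 samples). The untreated transgenic replicate 13, a primary sample outside this fit, was at 13.4 FPKM, within the range of adapted lines. Within CIZ1 null cells the difference was 0.93 (adjusted p = 0.0581), with replicate 13 added 0.74 (adjusted p = 0.148), and without adapted E13.15 1.09 (adjusted p = 0.0273, limma).

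Rbl1 (chr2:157145893-157204534), the gene for p107, which is made mainly in cycling cells and whose start window holds TTTCGCGC, separated the CIZ1 null lines. In WT it went from 4.56 to 12.5 FPKM in E13.1, from 4.58 to 7.85 in E13.8 and from 3.10 to 8.08 in E14.4, groups that did not overlap. Among CIZ1 null embryos it went from 4.74 to 10.6 in E13.15, but from 3.81 to 1.47 in E13.17 and from 4.91 to 3.09 in E14.2. In WT, Rbl1 rose by 1.03 (standard error 0.24; adjusted p = 0.0476, limma with Benjamini-Hochberg adjustment), a call that was lost with the embryo as a block (adjusted p = 0.0702), without the filter on low values (adjusted p = 0.0832), with all 4 groups of 3 in a single fit (adjusted p = 0.151), and when any sample but adapted E14.4 was left out (adjusted p 0.0654 to 0.165). In CIZ1 null cells the difference was -0.16 (95% interval -1.46 to 1.15), and 0.34 without adapted E13.17. Over both genotypes the difference was 0.44 (adjusted p = 0.366, limma). The difference between genotypes was -1.19 (95% interval -2.59 to 0.22; adjusted p = 0.996, limma).

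Rbl1 was set beside genes of proliferation. The summed FPKM of 11 of them, Mki67, Top2a, Ccna2, Ccnb1, Cdk1, Mcm2, Mcm5, Pcna, Rrm2, Bub1 and Aurkb, was 384 to 578 in the 6 primary populations and 791 to 883 in adapted WT lines. Among adapted CIZ1 null lines it was 901 in E13.15, 102 in E13.17 and 190 in E14.2. The 4 lines with the highest sums were the 4 with the highest Rbl1, and the 2 with the lowest sums, adapted E13.17 and E14.2, had an Rbl1 level under that of their own primary populations. Cdkn1b followed a different order, since adapted E13.17 had both the lowest sum and the highest Cdkn1b. In WT, Bub1, Cdk1 and Pcna, 3 of the 11 genes, rose and none fell, beside 2.87% of units called higher and 6.68% lower, and in CIZ1 null cells none was called, beside 4.86% of units. With the embryo as a block, Cdk1 kept its WT call (adjusted p = 0.0489) and Bub1 (0.0595) and Pcna (0.0981, limma) did not. The part of proliferation in the levels of the 10 genes was not tested.

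**Figure D3:**
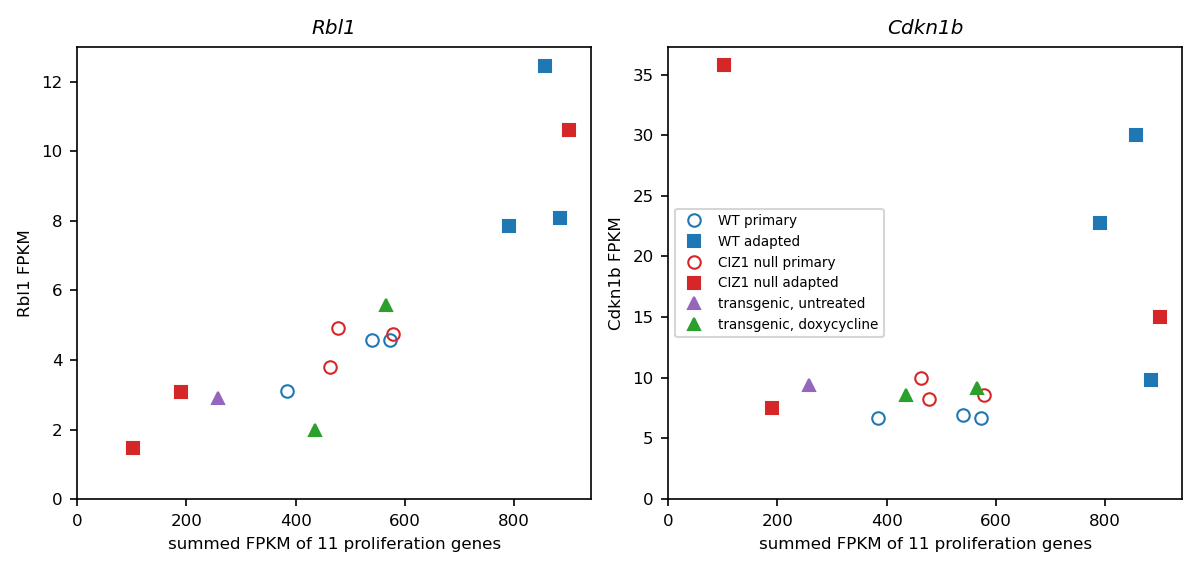
FPKM of Rbl1 (left) and Cdkn1b (right) on the vertical axes against the summed FPKM of 11 proliferation genes (horizontal axes, linear) in 15 samples, with symbols by group. Rbl1 is highest in the 4 adapted lines with sums of 791 to 901, whereas the highest Cdkn1b, 35.8 FPKM, belongs to the line with the lowest sum.

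The D cyclins, the activating partners of CDK4 and CDK6, differed from each other. Ccnd2 (chr6:127085116-127212411) was the more abundant in primary cells, at 165 FPKM in E13.1, 181 in E13.8 and 158 in E14.4 among WT and 180 in E13.15, 96.4 in E13.17 and 187 in E14.2 among CIZ1 null populations. The adapted lines were at 30.6 in E13.1, 57.3 in E13.8 and 59.0 in E14.4, and at 84.3 in E13.15, 51.6 in E13.17 and 59.0 in E14.2. No adapted line reached the lowest primary population of the 6 embryos. Replicate 15, a doxycycline-treated primary sample outside these fits, was at 78.0 FPKM, within the range of adapted lines. In WT, Ccnd2 fell by 1.81 (95% interval -2.47 to -1.16; adjusted p = 0.0193, limma with Benjamini-Hochberg adjustment), a call that was lost when any of the 3 primary WT populations was left out (adjusted p 0.0842 to 0.0979). The difference in CIZ1 null cells was -1.21 (adjusted p = 0.0765), or -1.41 without adapted E13.15 (adjusted p = 0.0470), and over both genotypes Ccnd2 fell by 1.51 (95% interval -2.02 to -1.0; adjusted p = 0.000842, limma), also without each of the 12 samples. A further unit at the same coordinates carries the symbols Gm43126 and Platr31, and reads may have been divided between it and Ccnd2.

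Ccnd1 (chr7:144915100-144939925) was higher after adaptation in every WT embryo and lower in every CIZ1 null embryo. In WT cells it went from 62.5 to 77.9 FPKM in E13.1, from 71.3 to 73.9 in E13.8 and from 43.1 to 59.6 in E14.4. Among CIZ1 null embryos it went from 62.6 to 49.6 in E13.15, from 72.7 to 34.8 in E13.17 and from 82.6 to 40.0 in E14.2, and those groups did not overlap. The WT difference was 0.27 (95% interval -0.28 to 0.83; adjusted p = 0.462) and the CIZ1 null difference -0.80 (95% interval -1.30 to -0.30; adjusted p = 0.0705, limma), or -0.93 without adapted E13.15 (adjusted p = 0.0369). The interaction was -1.07 (95% interval -1.77 to -0.38), with an unadjusted p of 0.00595 and an adjusted p of 0.996 in limma, so a difference between the genotypes was not called. Adapted CIZ1 null lines, at 34.8 to 49.6 FPKM, also lay under adapted WT lines, at 59.6 to 77.9, a difference of -0.76 (adjusted p = 0.998, limma), beside 3.74% of units that were lower without overlap, 4.55% that were higher and 8.28% in either direction. The pair with the lowest Ccnd1, adapted E13.17 and E14.2, was the pair with the lowest summed proliferation genes, but adapted E13.15, with the highest sum, had less Ccnd1 than its primary population too. The part of proliferation in this was not tested.

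**Figure D4:**
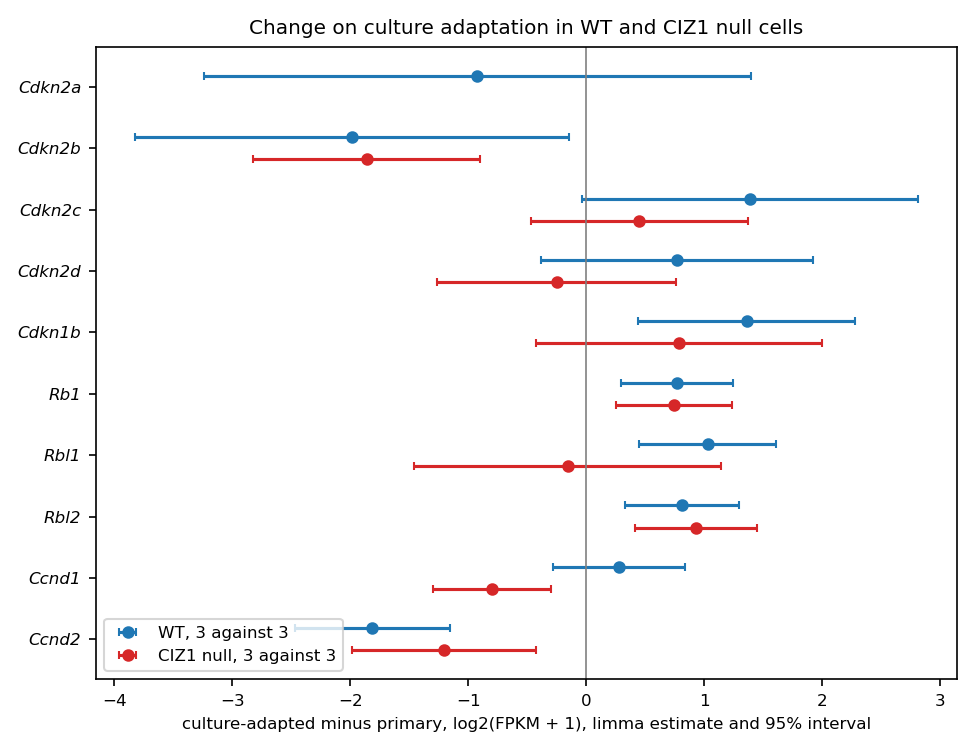
Difference between culture-adapted and primary cells (horizontal axis, log2(FPKM + 1), limma estimate with 95% interval) for the 10 genes, in WT (blue) and CIZ1 null cells (red), 3 samples against 3. Cdkn2a in CIZ1 null cells is left out because a sample is listed at 0. Rb1 and Rbl2 lie right of 0 and Cdkn2b and Ccnd2 left of 0 in both genotypes, and Ccnd1 lies on opposite sides.

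Counted over the 10 genes, all of which passed the filter of a mean of 1 FPKM, adaptation of WT cells called 2, beside 9.55% of 19919 units tested. They were Rbl1, which was higher (2.87% of units), and Ccnd2, which was lower (6.68%). WT groups did not overlap for 5 of the 10 (38.7% of units), of which Cdkn1b, Rb1, Rbl1 and Rbl2 were higher (17.3%) and Ccnd2 was lower (21.4%), and 6 of the 10 had an unadjusted p under 0.05, beside 30.6% of units. Among CIZ1 null cells limma called none, beside 4.86% of 20044 units (1.4% higher, 3.47% lower), and 5 of the 10 had an unadjusted p under 0.05, beside 29.3% of units. The CIZ1 null groups did not overlap for 5 of the 10 (37.1% of units), with Rb1 and Rbl2 higher (17.5%) and Cdkn2b, Ccnd1 and Ccnd2 lower (19.6%). With all 4 groups of 3 in a single fit, which shares 1 estimate of the spread, 4 of the 10 were called in CIZ1 null cells (Rb1, Rbl2, Ccnd1 and Ccnd2), beside 14.5% of 20046 units in that fit, and 3 in WT (Rb1, Rbl2 and Ccnd2), beside 13.3%.

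Over both genotypes together 5 were called, beside 33.3% of 20046 units. Cdkn1b, Rb1 and Rbl2 were higher (14.1% of units) and Cdkn2b and Ccnd2 lower (19.1%), and 6 of the 10 had an unadjusted p under 0.05, beside 44.1% of units. The groups did not overlap for 3 of the 10 (17.4% of units), with Rb1 and Rbl2 higher (7.2%) and Ccnd2 lower (10.2%). The median difference of the 10 was 0.77 in WT, -0.20 in CIZ1 null cells and 0.35 over both genotypes, beside -0.05, -0.04 and -0.05 over all units tested. In CIZ1 null cells and over both genotypes the 10 include Cdkn2a with its listed 0. Higher units made up 30.1% of the calls in WT, 28.7% in CIZ1 null cells and 42.5% over both, and 47.6%, 41.2% and 55.9% after quantile normalization.

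Loss of CIZ1 within primary cells gave small differences among the 10 genes. Cdkn1b was at 6.68 to 6.93 FPKM in WT and 8.25 to 10.0 in CIZ1 null populations, Cdkn2c at 5.17 to 6.5 and 6.57 to 7.89, and Rbl2 at 5.59 to 6.73 and 7.20 to 7.82, so that these 3 did not overlap, beside 6.13% of units that were higher without overlap. Their differences were 0.35 (95% interval 0.05 to 0.65), 0.28 (-0.05 to 0.61) and 0.25 (-0.05 to 0.55), with adjusted p of 0.776, 0.815 and 0.815 (limma). In either direction 11.9% of units did not overlap, and 5.72% were lower. The second units of Cdkn1b and Cdkn2c did overlap between the genotypes. Their differences were 0.10 (95% interval -0.29 to 0.49) and 0.08 (-0.39 to 0.56). None of the 10 was called by limma, and Cdkn1b alone had an unadjusted p under 0.05, beside 6.26% of units. The only call among 19566 units (0.00511%) was Ciz1, which was at 19.0 to 25.0 FPKM in primary WT and 0.171 to 0.279 in primary CIZ1 null samples. In adapted lines, too, limma called only Ciz1 (0.00501% of 19976 units) and none of the 10. Ccnd1 was the 1 of them with an unadjusted p under 0.05, beside 4.02% of units. The interaction called none of the 10 and 0% of 20046 units, and 1 of the 10, Ccnd1, had an unadjusted p under 0.05, beside 4.63% of units.

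Doxycycline raised Ciz1 from 0.171 and 0.514 FPKM to 296 and 191, and limma called none of the 10 genes in the 2 against 2 comparison, where 0.0101% of 19768 units were called and 1.76% had an unadjusted p under 0.05, none of the 10 among them. Cdkn1b, at 8.58 and 9.15 FPKM with and 10.0 and 9.42 without doxycycline, was the 1 member whose groups did not overlap (19.7% of units, 10.8% lower and 8.92% higher). Per the methods of the study, the treated and the untreated samples came from the same 2 populations. The labels do not say which treated sample belongs to which population, so the test takes all 4 as unpaired and a shift within a population cannot be read from these values. Cdkn2a was at 176 and 141 FPKM without and at 206 and 64.7 with doxycycline, Cdkn2b at 58.8 and 69.2 without and at 66.3 and 28.7 with it, and Ccnd1 at 72.7 and 97.6 without and at 122 and 71.3 with it. Rbl1 was at 3.81 and 2.91 without and 2.00 and 5.59 with doxycycline, while the proliferation sum was 463 and 259 without and 435 and 566 with it.

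The partners of the 10 genes were described by lists of related genes, whose calls stand beside 9.55% of units in WT, 4.86% in CIZ1 null cells and 33.3% over both genotypes. Among the other Cip/Kip inhibitors, Cdkn1a (p21, a p53 target) went from 249, 288 and 294 FPKM in primary WT E13.1, E13.8 and E14.4 to 124, 18.1 and 127 in the adapted lines. Cdkn1a fell by 1.14 in CIZ1 null cells (adjusted p = 0.0377, limma), and over both genotypes by 1.59 (adjusted p = 0.0126, limma). Cdkn1c (p57) was at 26.9, 18.9 and 26.6 FPKM in the same primary WT populations and at 0.259, 2.95 and a listed 0 in the adapted lines, and was called lower in WT (adjusted p = 0.0150, limma). In CIZ1 null cells Cdkn1c went from 41.1 to 7.72 FPKM in E13.15, from 46.7 to 27.3 in E13.17 and from 37.0 to 0.451 in E14.2, without a call. Over both genotypes it fell by 3.22 (adjusted p = 0.00257, limma). The listed 0 enters the WT fit and the fit over both genotypes. Of the kinases and further cyclins Cdk2, Cdk4, Cdk6, Ccnd3, Ccne1 and Ccne2, of the E2F and DP genes (9 of 10 tested), of the 5 MuvB genes and of the 6 genes found for turnover of p27 and D cyclins, none was called in either genotype taken alone. Over both genotypes E2f4, for a repressor-type E2F, fell by 0.42 (adjusted p = 0.0206), Lin52 of MuvB rose by 0.67 (adjusted p = 0.00390) and Skp1a, for a ubiquitin ligase subunit, rose by 0.40 (adjusted p = 0.00996, limma). Of Trp53, Mdm2 and Mdm4, only Mdm4, an inhibitor of p53, was called, rising by 0.96 in CIZ1 null cells (adjusted p = 0.0449) and by 1.22 over both genotypes (adjusted p = 0.00662, limma). With the embryo as a block, the WT call of Cdkn1c held (adjusted p = 0.0480) and the CIZ1 null calls of Cdkn1a (0.0957) and Mdm4 (0.102, limma) were lost.

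Of 14 regulators of the Cdkn2a locus, 13 were tested for adaptation and 3 called in each genotype, beside 9.55% of units in WT and 4.86% in CIZ1 null cells. Bmi1, a Polycomb gene known for repressing Cdkn2a, was at 20.5, 22.5 and 22.7 FPKM in primary WT E13.1, E13.8 and E14.4 and at 31.0, 47.1 and 45.7 in the adapted lines, and at 16.7, 21.7 and 19.3 in primary CIZ1 null E13.15, E13.17 and E14.2, against 39.1, 43.7 and 43.8 after adaptation. It rose in both genotypes (WT 0.86, adjusted p = 0.0498, CIZ1 null 1.10, adjusted p = 0.0303, both limma). Ezh2, the Polycomb methyltransferase gene, rose in WT by 0.82 (adjusted p = 0.0342) and Ets1, an activator of p16INK4a, fell there by 1.19 (adjusted p = 0.0468, limma). Among CIZ1 null embryos Ezh2 went from 12.5 to 23.5 FPKM in E13.15, from 13.5 to 5.79 in E13.17 and from 13.7 to 6.46 in E14.2, a difference of -0.41 (adjusted p = 0.609, limma). The last 2 are the lines with the lowest proliferation sums, whose part in this was not tested. Within CIZ1 null cells Rnf2, another Polycomb gene, rose by 1.02 and Tbx2, a repressor of Cdkn2a, fell by 1.26 (adjusted p = 0.0342 and 0.0376, limma). Over both genotypes Bmi1, Rnf2 and Dmtf1, an activator of ARF, were called higher and Ets1 lower. With the embryo as a block, all 3 WT calls (adjusted p 0.0506 to 0.0801) and all 3 CIZ1 null calls (0.0907 to 0.105) of these regulators were lost, whereas the 4 over both genotypes held (0.00240 to 0.0299, limma). Each call of a gene in these lists or the proliferation list within 1 genotype was also lost in at least 3 of the 6 fits that left out 1 sample, and of those over both genotypes only that of E2f4 was lost, in 1 of 12 (adjusted p = 0.0502, limma).

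The genes with the profile most like each of 4 members were found by Pearson correlation of log2(FPKM + 1) over the 15 samples, as a description. For Cdkn2a they were Rrbp1 (r = 0.93), Surf4 (0.91) and 1810014B01Rik (0.90), each of them lowest in adapted E13.17, at 70.9, 63.3 and 5.57 FPKM. Over the 14 samples without that line, where Cdkn2a was listed at 0, their r was 0.82, 0.77 and 0.59, whereas for the other 3 members it stayed between 0.91 and 0.95. For Cdkn2b they were Mul1 (0.94), Ube4b (0.91) and Rnf11 (0.91), all on chromosome 4. For Cdkn2c they were Stxbp6 (0.93), Ism1 (0.93) and A4galt (0.93), whose 3 highest values lay in the same 3 adapted lines as those of Cdkn2c. For Ccnd2 they were the unit at the same coordinates (0.95) and both units of Galnt18 (0.94 each). All samples of 1 group and both samples of 1 embryo share their origin, so the 15 points are not independent.

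Across the series, depth and cell identity stood as follows. The depth of a library relative to primary WT E14.4, read from the step that a single fragment makes at low FPKM, was 1 to 1.62 in primary WT, 0.619 to 1.18 in adapted WT, 1.20 to 1.45 in primary CIZ1 null and 0.539 to 0.894 in adapted CIZ1 null samples, and 0.482 in replicate 13. Adapted libraries were thus mostly shallower. The summed FPKM of 9 fibroblast genes was 8158 to 8848 in the primary and 2341 to 4790 in the adapted samples of the 6 embryos, 7553 in replicate 13, and 6561 and 5455 with doxycycline. Of the 9, Col1a1, Col1a2 and Vim were called lower, in CIZ1 null adaptation (with the embryo as a block, adjusted p 0.0708 to 0.0904, limma) and over both genotypes, and none was called in WT. Dcn was higher in the adapted line of 5 of 6 embryos, from 31.1 to 905 FPKM in E14.4 for example, and Pdgfra in 4 of 6. Thy1 was lower in the adapted line of all 6 embryos. It went from 856 FPKM to a listed 0 in E13.8 and from 769 to 0.215 in E13.17. Lum was higher in 1 of 3 embryos of each genotype, and was listed at 0 in adapted E13.1, E13.17 and E14.4. Their part in the results was not tested. Markers of other cell types were low: the sums lay at 0 to 11.6 FPKM for 4 epithelial, 0.131 to 2.60 for 3 endothelial, 1.79 to 15.4 for 4 haematopoietic, 0 to 4.96 for 2 neural and 0 to 13.6 for 3 skeletal muscle genes, and Des of the last list fell in both genotypes (in CIZ1 null cells with the embryo as a block, adjusted p = 0.0708, limma). Over both genotypes epithelial Krt18 fell by 1.49 (adjusted p = 0.000951, limma). Of the haematopoietic genes, Cd68 fell by 1.24 and Csf1r by 0.70 there (adjusted p = 0.04999 and 0.0323, limma). These 2 calls were kept in 3 and 6 of 12 fits that left out 1 sample.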

How the data were processed

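Poly(A)-selected RNA of 15 fibroblast samples was sequenced by the authors. Per the labels and the methods of the study, reads were trimmed with Cutadapt 1.8.3, aligned to GRCm38 with HISAT2 2.0.5 and assembled with Cufflinks, and the deposited values are FPKM per transcription unit from Cuffnorm. A second deposited table holds the authors' log2 fold changes, p-values and q-values of their own comparisons and was not used. Coordinates are those of the file, moved by 1 base to count from 1. All 15 columns of values were mapped to samples, and no 2 of them were identical. Groups came from the labels. The source name of primary E13.17 carries the number of replicate 13, in conflict with its title, and the title was used. The embryo of 12 samples came from the per-line values of the study, which matched the deposited ones, and pairs primary and adapted samples. The deviations from the group means correlated by -0.02 to 0.21 within these pairs.

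Groups were compared in R 4.3.3 with limma 3.58.1 (lmFit, eBayes with trend) on log2(FPKM + 1). Only units whose FPKM averaged 1 or more over the samples compared were tested, and a unit was called at a Benjamini-Hochberg adjusted p under 0.05 over all of them. The pseudocount of 1 understates changes of low genes. FPKM carries no read count, so no counting intervals are given. The p-values for CIZ1 loss measure the spread between populations of separate embryos. Adaptation fits without the block, and the interaction, enter each embryo as a primary and an adapted sample and take them as separate. The doxycycline fit likewise takes samples of the same populations as separate. The fits were tested on simulated data. In most comparisons all changes of 1 on the log2 scale were missed there, and with doxycycline all changes of 2 as well. Only 200 units were changed there, fewer than adaptation called in either genotype, which makes the adjustment stricter. Calls of adaptation in the real data include differences under 1, so these misses set no limit of detection. With groups this small, a gene that was not called is still not shown to be unchanged. Alternatives were a pseudocount of 0.1, no filter, quantile normalization, an embryo block, all 4 groups in 1 fit, a different choice of CIZ1 null primaries, and leaving samples out. The genes described, the related lists and the tests were chosen with earlier results of these data known. Named genes were the 10 members, list genes called in a comparison, units within 500 kb of Cdkn2a above 0.1 FPKM, the 3 units most like each of 4 members, and Ciz1. Figures were drawn with Python 3.11.15.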

Additional observations from a re-analysis of the deposited data

Results flagged for a closer look

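Ccnd1 was marked for a closer look because its level went up with culture adaptation in each of the 3 WT embryos and down in each of the 3 CIZ1 null embryos. The change in CIZ1 null cells less that in WT cells was -1.07 on the log2(FPKM + 1) scale, and its adjusted p was 0.996 in limma. Of 20046 units, 156 (0.778%) went up in every WT embryo and down in every CIZ1 null embryo. No group had 4 or more samples, so no group was searched for a sample far from the others.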

How the results depend on the processing

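The number of the 10 genes called for WT adaptation, 2 as reported, was 1 without the filter, 4 after quantile normalization, 1 with the embryo as a replicate block, and 0 to 4 with each sample left out. For CIZ1 null adaptation, 0 as reported, it was 4 with all 4 groups in a single fit, 1 with all 4 untreated primary CIZ1 null samples, and 0 to 4 with each sample left out. Adaptation over both genotypes called 5, and 4 to 6 with each sample left out. The number of units called in the 2 genotypes, 1902 and 975, was 988 and 322 without the filter, 499 and 10 with the block, 2671 and 2907 with all 4 groups in a single fit, and 62 to 2972 and 25 to 2999 with each sample left out. With 4 or only 2 primary CIZ1 null samples it was 449 and 30 in CIZ1 null adaptation. With each sample left out it was 1 to 5 for CIZ1 loss in primary cells, 0 to 4 in adapted cells, 0 to 6 for doxycycline and 0 to 234 for the interaction. The block changed no other call of the 10 genes than that of Rbl1. Leaving out 1 of 3 samples leaves fewer residual degrees of freedom; otherwise the cause was not tested. Quantile normalization moved the median difference of all units in WT from -0.05 to 0.06 and turned no difference of the 10 genes in either genotype. No paired fit was made for doxycycline because the labels pair no samples there.

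Cdkn2d in CIZ1 null adaptation was 0.0010 with only the 2 primary samples without a transgene, and -0.66 to 0.0010 with each sample left out. With adapted E13.17 and E14.2 both left out of the fit over both genotypes, Ccnd1 was 0.0060; these lines were picked for values seen, so no call is drawn from that fit. With each sample left out, Cdkn2a in WT ran from -2.08 to 0.011 and Rbl1 in CIZ1 null cells from -0.78 to 0.34. The study gives only an approximate number of reads per sample and FPKM carries no count. The number of reads behind a value near 0 was therefore not worked out.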
